A study of Homo sapiens with 12 samples.

Results

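Integrins are the cell-surface receptors that hold a cell to its matrix, and focal adhesion proteins are the set that ties them to actin filaments inside. The group described here holds 41 of the 20114 gene symbols in the deposited RNA tables. It takes in 17 integrin alpha subunits and 8 beta subunits, the talins TLN1 and TLN2, and the kindlins FERMT1, FERMT2 and FERMT3. It also holds ILK with the parvins PARVA and PARVB, vinculin (VCL), zyxin (ZYX), paxillin (PXN) and focal adhesion kinase (PTK2). One alpha subunit was left out by the rule that chose the group. Another 4 symbols, ITGB1BP1, ITGB1BP2, ITGB3BP and ITGBL1, entered because they begin like the integrin symbols, although none of them is an integrin subunit.

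Each integrin pairs 1 alpha with 1 beta subunit, and the pair sets which ligand it holds. The subunit alpha 3 with beta 1 binds laminins, alpha 5 with beta 1 binds fibronectin, the alpha v pairs bind vitronectin, fibronectin or latent TGF-beta, and alpha 6 with beta 4 anchors epithelial cells to the basement membrane in hemidesmosomes. Talins and kindlins bind the beta tail and switch the receptor to its active state. ILK, the parvins and vinculin strengthen the link to actin, and focal adhesion kinase and paxillin pass the signal on.

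RNA was sequenced from Caki-1, a long-used human kidney cancer cell line, and from cells derived from it that resist cabozantinib, an inhibitor of MET, AXL, VEGF receptors and other kinases, with 2 libraries of each line. Selection began at 5 µM of the drug and went up to 20 µM over 2 months, and resistant cells were then cultured with 10 µM. Parental cells grew in RPMI 1640 and resistant cells were made in McCoy's 5A medium, so drug, selection and medium cannot be told apart, and bulk RNA does not separate fewer cells of a kind from less RNA per cell. The labels do not say that the replicates were separate cultures or that the resistant line is a clone, so p-values measure only the spread between these libraries, which may be technical. The series also has 4 H3K27ac libraries and 4 inputs, which were not used for these genes.

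The libraries held from 10584083 to 14664723 estimated counts. The parental pair differed little (a chi-square statistic of 1.93 per gene), while the resistant pair differed far more (46.4 per gene). Mitochondrial transcripts took 5.08% and 5.2% of parental counts and 7.72% and 9.57% of resistant counts. Levels below are TMM-scaled CPM, which put libraries on 1 total, or, where genes are compared with each other, the deposited TPM, which are per length. Markers of the labelled cell type were mixed. The kidney lineage factor PAX8 stood at 210 and 205 TPM in the parental libraries and 133 TPM in each resistant one (log2 fold change -0.53, adjusted p = 0.104 by edgeR). CDH2, from the same marker list, stood at 26.5 and 26.7 TPM against 17.1 and 9.98 TPM (log2 fold change -0.93, adjusted p = 0.0452 by edgeR). KRT8, KRT18 and VIM were abundant, whereas PAX2 was at 0 in all 4 libraries and CA9 at 0 to 14 counts. Blood and endothelial markers were low or at 0, with PTPRC at 0 or 1 count and CD3E, HBB and CDH5 at 0 counts in every library. The monocyte marker CD14 had 5 to 12 counts, and the platelet markers PF4 and GP1BA had 3 to 12 and 6 to 14.

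Resistant replicate 2 fell with gene length and resistant replicate 1 did not. Effective length was taken from the ratio of counts to TPM and is given relative to the median gene. Across 12528 genes, which are not independent, Spearman's rho between length and the log2 difference from the parental libraries' mean came to -0.01 for resistant replicate 1 and -0.46 for replicate 2. Of 3 equal classes by length, the longest had a median log2 difference of 0.00 in replicate 1 and -0.37 in replicate 2, and the shortest 0.03 and 0.34. This bears on the integrins because they are long transcripts: 20 of the 31 members with a length lay in the longest class, 8 in the middle and 3 in the shortest. Values of the tested members are therefore given by resistant library, as levels or as log2 differences from the parental mean.

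Of the 41 members, 32 had enough counts to be tested. Integrin alpha mRNA was mostly ITGA3, ITGAV and ITGA5, and integrin beta mRNA mostly ITGB1 and ITGB5. ITGA3 stood at 450.5 ± 17.2 TPM (SD, n = 2) in the parental line and made up 74.2% and 74.0% of the summed TPM of the 17 alpha subunits in the parental libraries and 72.3% and 79.3% in resistant replicates 1 and 2. ITGAV made up 11.3% and 11.7% of the parental sum against 15.9% and 8.25% of the resistant sum, so the resistant libraries lay on either side of the parental pair. ITGA5 gave 11.6% and 11.3% against 9.003% and 10.03%.

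The share of every beta subunit except ITGB4 in beta-subunit mRNA differed from the parental ones in the same direction in both resistant libraries. ITGB1 held 83.0% and 83.6% of beta-subunit TPM in parental cells and 77.1% and 62.6% in resistant replicates 1 and 2. ITGB5, which pairs with alpha v, held 11.6% and 10.7% against 15.8% and 24.2%. ITGB6, an epithelial partner of alpha v, held 0.754% and 0.879% against 1.68% and 2.42%. ITGB4 held 1.26% and 1.72% against 1.52% and 7.34%, so its share in replicate 1 lay between the parental ones. The ITGB1 share was lower, and the ITGB5 and ITGB6 shares higher, in both resistant libraries than in either parental one, with no overlap, and each of these differences was larger in replicate 2 than in replicate 1. The ITGB3 share was also higher in both (1.93% and 1.70% against 2.85% and 2.32%). That of ITGB8 was lower in both (1.32% and 1.33% against 0.855% and 1.02%). For ITGB3 and ITGB8 the difference was larger in replicate 1. ITGB7 was higher and ITGB2 lower in both, at very small shares. Shares show unequal change and not which mRNA moved, and they had no test of their own. The summed beta-subunit TPM was 999 and 1005 in the parental libraries, 769 in resistant replicate 1 and 459 in resistant replicate 2.

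**Figure D1:**
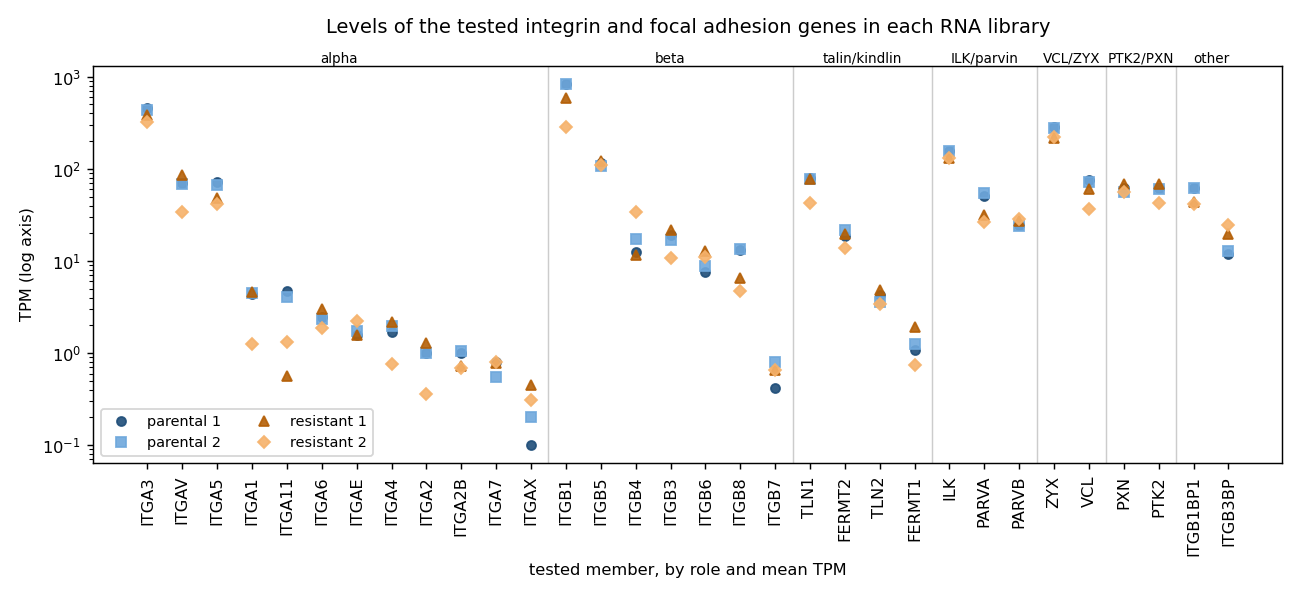
Deposited TPM on a log axis of the 32 tested members, grouped by role and ordered by mean TPM, with 1 point for each of the 4 RNA libraries. ITGB1, ITGA3 and ZYX lie highest, and resistant replicate 2 lies lowest for ITGB1 (287 TPM) and ITGAV (33.8 TPM).

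**Figure D2:**
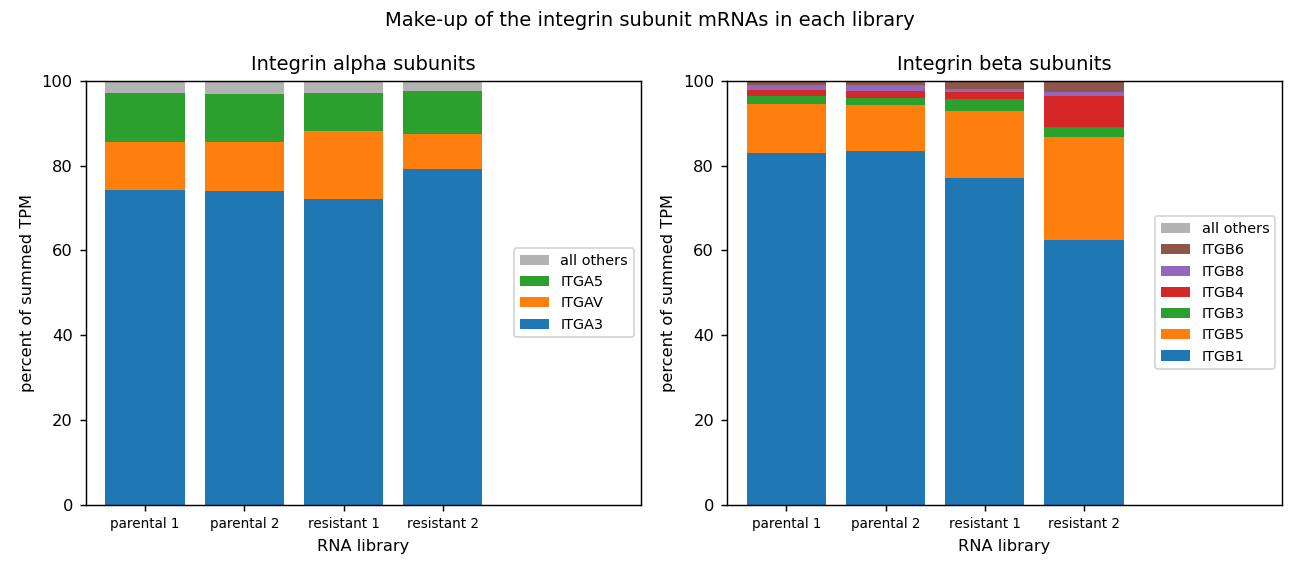
Percent of summed TPM held by each integrin alpha subunit (left) and beta subunit (right) in each RNA library, as stacked bars from 0 to 100. ITGB1 takes 83.0% and 83.6% of the parental bars and 77.1% and 62.6% of the resistant bars, while ITGA3 lies between 72.3% and 79.3%.

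The direct question was which members differed between the resistant and the parental line. ITGB8 and PARVA fell, and no member rose: the quasi-likelihood test of edgeR, Benjamini-Hochberg adjusted over all genes, called 2 of 32 members lower and 0 higher. Over all 12792 genes tested the same rule called 3.41% lower and 2.96% higher, or 6.37% in either direction, near the members' share of 6.25%. Without adjustment 9 of 32 members had a p under 0.05 by edgeR, against 27% of all genes tested. DESeq2's Wald test called 5 of the 39 members it tested lower and 0 higher, against 5.14% and 4.14% of the genes it tested. Scaling by library totals turned the split of all genes called from 379 higher and 436 lower to 531 and 373, but 20 of the 32 members had a negative log2 fold change under both scalings.

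ITGB8, the beta subunit that with alpha v binds and activates latent TGF-beta, stood at 82.2 and 87.8 CPM in the parental libraries and 39.8 and 35.7 CPM in resistant replicates 1 and 2. Both resistant libraries were below both parental ones, and close to each other. The log2 fold change was -1.17 ± 0.15 (SE) with an adjusted p of 0.0153 by edgeR, a level 0.444 times the parental one. ITGB8 is one of the longest members (3.36 times the median gene), and at that length the trend of all genes was 0.01 in replicate 1 and -0.52 in replicate 2, so that its log2 difference beyond the trend was -1.10 and -0.72. Correcting for length raised the share of all genes called from 6.37% to 17.6%. With that correction the log2 fold change of ITGB8 was -0.91 and edgeR's adjusted p 0.0113. The call ended without parental replicate 2 (adjusted p = 0.0906) and with limma on log2(TPM + 1) (0.0646) or log2(TPM + 0.1) (0.0684). Over 16 alternatives its adjusted p ran from 8.03e-06 to 0.0906.

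PARVA, the actin-binding partner of ILK that is expressed in most tissues, stood at 111 and 118 CPM in the parental libraries and at 71.6 and 64.3 CPM in resistant replicates 1 and 2. The groups did not overlap, and both resistant libraries were lower by a like amount. The log2 fold change was -0.75 ± 0.15 (SE) with an adjusted p of 0.04 by edgeR. Its length was near the median (1.13 times), where the trend in replicate 2 was -0.04, and length correction gave a log2 fold change of -0.74 and an adjusted p of 0.00707. The call was lost on leaving out parental replicate 1 (adjusted p = 0.39) or 2 (0.503), with library totals (0.0566) and with limma on log2(TPM + 0.1) (0.0541). Over 16 alternatives its adjusted p ran from 0.00103 to 0.503.

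Upstream sequences are shown for ITGB8, for ITGA11 and ITGA5, which lay lower in both resistant libraries with an adjusted p just above the threshold, and for ITGB6, which lay higher in both. The last 3 were chosen after their values were seen. Promoters were matched by symbol for 29 of the 41 members in RefSeq's annotation of GRCh38.p14. Each run is the 250 bases before the gene's start on its own strand, 5′ to 3′, at chr7:20330650-20330899 (plus strand) for ITGB8, chr15:68432164-68432413 (minus) for ITGA11, chr12:54419267-54419516 (minus) for ITGA5 and chr2:160200273-160200522 (minus) for ITGB6. Capitals mark matches on either strand to GGGCGG (the core bound by SP1), GGAATG (a TEAD core), TGANTCA (AP-1), CACGTG (an E-box), TATAAA, or the CArG box of serum response factor.
ITGB8: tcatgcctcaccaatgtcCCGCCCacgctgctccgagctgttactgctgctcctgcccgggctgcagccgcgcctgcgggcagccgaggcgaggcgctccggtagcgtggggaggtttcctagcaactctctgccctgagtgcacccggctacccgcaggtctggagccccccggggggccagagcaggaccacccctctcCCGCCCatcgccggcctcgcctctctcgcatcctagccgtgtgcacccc
ITGA11: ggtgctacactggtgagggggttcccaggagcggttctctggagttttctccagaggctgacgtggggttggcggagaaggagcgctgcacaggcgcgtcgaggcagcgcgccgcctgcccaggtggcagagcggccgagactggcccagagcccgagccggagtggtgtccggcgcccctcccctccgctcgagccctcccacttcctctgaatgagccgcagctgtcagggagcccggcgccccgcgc
ITGA5: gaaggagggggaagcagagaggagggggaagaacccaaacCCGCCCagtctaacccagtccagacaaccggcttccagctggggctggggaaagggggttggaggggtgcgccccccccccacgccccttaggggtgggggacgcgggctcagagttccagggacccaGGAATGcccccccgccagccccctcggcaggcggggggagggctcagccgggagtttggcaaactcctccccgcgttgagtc
ITGB6: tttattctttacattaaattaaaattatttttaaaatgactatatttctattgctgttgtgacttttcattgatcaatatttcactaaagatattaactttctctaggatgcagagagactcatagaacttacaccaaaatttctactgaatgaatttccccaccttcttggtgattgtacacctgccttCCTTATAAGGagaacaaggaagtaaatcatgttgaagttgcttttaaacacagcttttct
ITGB8 held 2 matches to GGGCGG and ITGA5 held 1, a motif found in 42.6% of all 35116 promoter windows of this length. ITGA5 also held 1 GGAATG, found in 11.9% of windows, 82 to 77 bases before its start. ITGB6 held 1 CArG box, 60 to 51 bases before its start, which 1.16% of windows hold. ITGA11 held none of the 6 motifs. By base composition the ITGB6 window stood apart, at 30.0% G and C against 71.2% for ITGB8, 71.2% for ITGA11 and 70.0% for ITGA5. A match is a description of the sequence and not a site of binding.

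Among the alpha subunits 0 of 12 tested passed with edgeR, and 3 had an unadjusted p under 0.05. ITGA5, the fibronectin receptor subunit, stood at 206 and 210.3 CPM in the parental libraries and at 140.3 and 124 CPM in resistant replicates 1 and 2. All resistant values lay below all parental ones, with a log2 fold change of -0.66 ± 0.14 (SE) and edgeR's adjusted p at 0.0526. Its adjusted p was 0.016 with DESeq2 and 0.0146 with length correction, settings that called 9.28% and 17.6% of all genes. It was 0.0552 with limma-voom and 0.0756 by edgeR with library totals. Over 16 alternatives the log2 fold change ran from -0.74 to -0.55. ITGA11, a collagen receptor subunit of mesenchymal cells, had the lowest log2 fold change of the tested members. It stood at 17.7 and 15.2 CPM against 2.00 and 5.67 CPM. Its resistant libraries differed by more than the parental ones did, and the log2 fold change was -2.12 ± 0.46 (SE, adjusted p = 0.0524 by edgeR). Over 16 alternatives ITGA11 passed in 12, with log2 fold changes from -3.04 to -1.50, adjusted p-values from 1.56e-09 to 0.0676, and a lower resistant level in all 16. Those 12 include every fit that left 1 library out, where the spread comes from the other line alone. The stromal marker LUM had 78 and 137 counts in the parental libraries against 56 and 30 in the resistant ones (log2 fold change -1.80, adjusted p = 0.0507 by edgeR) and PDGFRB had 250 and 230 against 299 and 245, while PDGFRA had 0 to 5; their part in the ITGA11 values was not tested.

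ITGA3, the laminin receptor subunit, stood at 1653 and 1596 CPM against 1322 and 1323 CPM. Both resistant libraries were lower and alike, but the log2 fold change of -0.30 ± 0.14 (SE) did not pass (adjusted p = 0.242 by edgeR). At the length of ITGA3, 1.87 times the median gene, the trend in replicate 2 was -0.34. Beyond the trend its log2 difference was -0.29 in replicate 1 and 0.05 in replicate 2, so the libraries were alike only before length was taken into account. ITGAV, the partner of beta 3, 5, 6 and 8, stood at 375 and 372 CPM in the parental libraries, 428 CPM in resistant replicate 1 and 205 CPM in resistant replicate 2. The resistant libraries thus stood above and below the parental pair, and the log2 fold change of -0.24 ± 0.33 (SE) had an adjusted p of 0.675 by edgeR. Taken 1 at a time they went opposite ways: the log2 fold change was 0.19 without replicate 2 and -0.86 without replicate 1. These were the ends of its range over 16 alternatives. ITGAV is long (2.77 times the median gene), and beyond the length trend its log2 difference was 0.19 in replicate 1 and -0.39 in replicate 2.

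ITGA1, a collagen receptor subunit and the longest member at 4.32 times the median gene, was low in replicate 2 above all. It stood at 36.0 and 38.0 CPM in the parental libraries, 35.8 CPM in resistant replicate 1 and 11.8 CPM in resistant replicate 2. Both resistant libraries were below both parental ones, replicate 1 by a log2 difference of -0.05. Replicate 2 had a log2 difference of -1.63, of which -1.04 lay beyond the length trend, and the log2 fold change over both was -0.63 ± 0.47 (SE, adjusted p = 0.429 by edgeR). ITGA2, the other collagen receptor subunit of epithelia, and ITGA4, a receptor subunit for fibronectin and VCAM1, had log2 differences of 0.24 and 0.17 in replicate 1 and -1.21 and -0.995 in replicate 2. In ITGA2 and ITGA4, as in ITGAV, the resistant libraries stood on either side of the parental pair.

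ITGA6, the laminin receptor subunit that pairs with beta 1 or beta 4, had a log2 fold change of 0.50 ± 0.27 (SE) at 6.33 to 12.1 CPM, with log2 differences of 0.70 and 0.27 in resistant replicates 1 and 2. ITGA7, ITGAE and ITGA2B lay between 1.29 and 7.22 CPM, with log2 fold changes of 0.31, 0.29 and -0.42. Their log2 differences in resistant replicates 1 and 2 were 0.14 and 0.46 for ITGA7, -0.14 and 0.61 for ITGAE, and -0.47 and -0.24 for ITGA2B. ITGAX, a subunit of myeloid cells, had 3 and 6 parental counts against 23 and 16 resistant counts, a log2 fold change of 1.63 ± 0.53 (SE, adjusted p = 0.125 by edgeR). ITGAX had enough counts to be tested only through the resistant libraries, so the direction of its change was favored in advance. Its partner ITGB2 had 7 and 5 counts against 5 and 1. The leukocyte marker PTPRC had at most 1 count in any library, and the monocyte marker CD14 had 5 and 12 counts against 6 and 8. The source of the ITGAX counts was not tested.

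Among the beta subunits ITGB8 alone passed, of 7 tested. ITGB1, the partner of most alpha subunits, stood at 2131 and 2198 CPM in the parental libraries, 1454 CPM in resistant replicate 1 and 876 CPM in resistant replicate 2. Both resistant libraries were below both parental ones, by log2 differences of -0.57 and -1.30. The log2 fold change of -0.89 ± 0.26 (SE) had an adjusted p of 0.0956 by edgeR. ITGB1 passed with DESeq2 (adjusted p = 0.00449) and with length correction (0.0224), settings that called 9.28% and 17.6% of all genes. It did not pass with limma-voom (0.0939). Its log2 fold change was -1.30 without resistant replicate 1 and -0.58 without replicate 2, and it was lower in all 16 alternatives.

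ITGB6 stood at 25.7 and 31.0 CPM in the parental libraries and at 42.2 and 44.2 CPM in resistant replicates 1 and 2. Its log2 fold change was 0.61 ± 0.17 (SE), with edgeR's adjusted p at 0.0919, and 0.78 with an adjusted p of 0.0297 after length correction, with a range of 0.00144 to 0.792 over 16 alternatives. ITGB4, the hemidesmosome subunit, stood at 38.5 and 36.1 CPM against 39.6 and 77.4 CPM, so nearly all of the difference was in resistant replicate 2. The log2 fold change was 0.65 ± 0.32 (SE, adjusted p = 0.248 by edgeR). It was 0.08 without replicate 2 and 1.06 without replicate 1, the ends of its range over 16 alternatives. The estimated length of the ITGB4 transcripts was 1.59 and 1.07 times the median gene in parental replicates 1 and 2, against 1.87 and 1.05 times in resistant replicates 1 and 2. That length differed within each line, and the TPM of ITGB4, 12.6 and 17.3 against 11.7 and 33.7, set the parental libraries farther apart than its CPM did.

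ITGB5 stood at 307 and 313 CPM against 309 and 347 CPM. The groups overlapped, and the log2 fold change was 0.08 ± 0.14 (SE, adjusted p = 0.751 by edgeR). ITGB3, the vitronectin receptor subunit, stood at 53.4 and 49.8 CPM in the parental libraries, 59.2 CPM in resistant replicate 1 and 33.9 CPM in resistant replicate 2. Like ITGAV, its resistant libraries stood on either side of the parental pair (log2 fold change -0.15 ± 0.27, SE, adjusted p = 0.762 by edgeR). ITGB7, a leukocyte subunit, had 8 and 17 counts against 14 and 16.

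**Figure D3:**
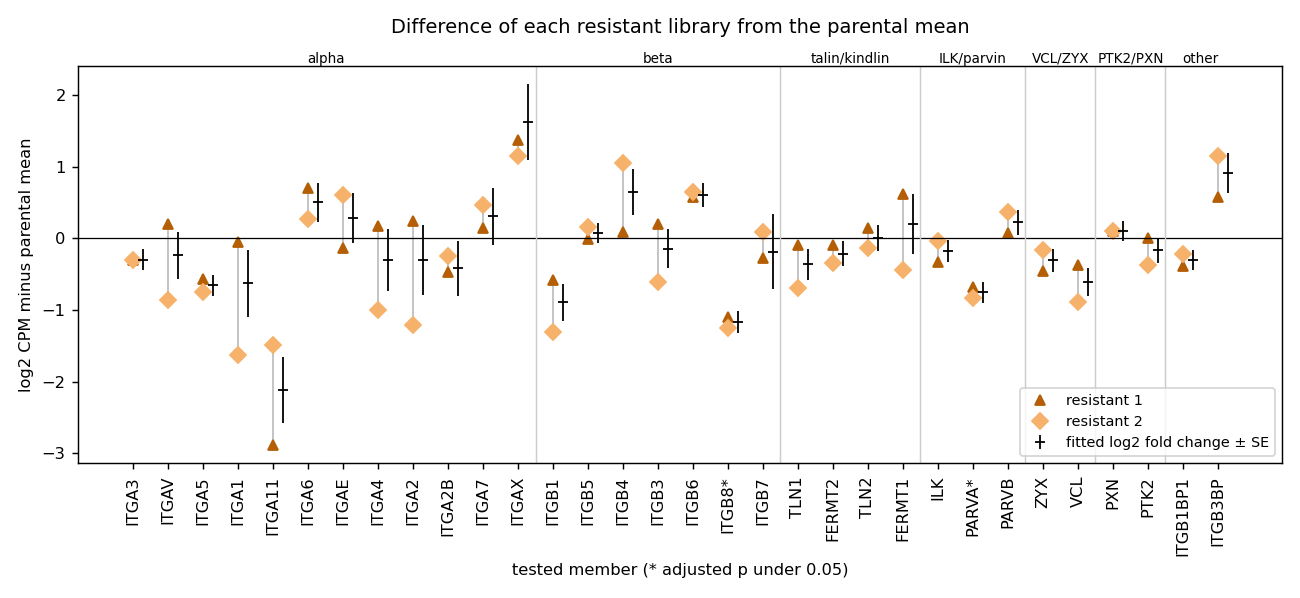
Log2 CPM of each resistant library minus the parental mean for the 32 tested members, with the fitted log2 fold change and its SE in black. ITGB8 (-1.09 and -1.25) and PARVA (-0.68 and -0.83) have resistant libraries close together, whereas ITGAV (0.20 and -0.86) and ITGA1 (-0.05 and -1.63) do not.

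The activators of integrins did not pass, with 0 of 4 tested called by edgeR and 0 with an unadjusted p under 0.05. Talin 1 (TLN1), which joins the beta tail to actin, stood at 537 and 525 CPM against 496 and 329.97 CPM. Both resistant libraries were lower, by log2 differences of -0.10 and -0.69. TLN1 is 3.52 times as long as the median gene, and beyond the length trend these differences were -0.11 and -0.15, against a trend of -0.53 in replicate 2 for genes of its length. Kindlin 2 (FERMT2), the form found in most adherent cells, stood at 44.4 and 52.1 CPM against 45.1 and 37.9 CPM, and the groups overlapped. TLN2 had a log2 fold change of 0.01, with log2 differences of 0.14 and -0.14 in resistant replicates 1 and 2. FERMT1, the epithelial kindlin, had one of 0.20, with log2 differences of 0.62 and -0.44.

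In the ILK complex PARVA fell, as described. ILK itself stood at 178 and 181 CPM against 143 and 175 CPM, lower in both resistant libraries by log2 differences of -0.33 and -0.04 (log2 fold change -0.18 ± 0.16, SE, adjusted p = 0.498 by edgeR). At the length of ILK, 0.60 times the median gene, the trend in replicate 2 was 0.26. Beyond the trend its log2 differences were -0.37 in replicate 1 and -0.30 in replicate 2. PARVB, the paralog that can take the place of PARVA on ILK, stood at 33.4 and 31.9 CPM against 34.3 and 42.2 CPM. It was higher in both resistant libraries, with a log2 fold change of 0.23 ± 0.17 (SE, adjusted p = 0.441 by edgeR). On the TPM scale PARVA stood at 50.3 and 55.0 in the parental libraries and 31.7 and 26.5 in resistant replicates 1 and 2, and PARVB at 24.5 and 23.8 against 27.03 and 28.2. PARVA was thus the more abundant parvin in both parental libraries and in resistant replicate 1, and PARVB by a small margin in resistant replicate 2. In that library the length trend was 0.19 at the length of PARVB and -0.04 at that of PARVA. Its part in this order was not tested.

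Vinculin (VCL), which is recruited by stretched talin, stood at 295 and 280.4 CPM in the parental libraries and at 221 and 155 CPM in resistant replicates 1 and 2. The groups did not overlap, and the log2 fold change of -0.61 ± 0.20 (SE) had an adjusted p of 0.123 by edgeR and of 0.0338 after length correction, with a range of 0.000733 to 0.673 over 16 alternatives. Zyxin (ZYX), a LIM protein of mature adhesions and stress fibers, stood at 429.8 and 441 CPM against 316 and 389 CPM. It too was lower in both resistant libraries (log2 fold change -0.30 ± 0.16, SE, adjusted p = 0.281 by edgeR).

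Focal adhesion kinase (PTK2) stood at 147 and 145 CPM in the parental libraries, 147 CPM in resistant replicate 1 and 113 CPM in resistant replicate 2. The groups overlapped, and the log2 fold change was -0.17 ± 0.17 (SE, adjusted p = 0.566 by edgeR). Its scaffold paxillin (PXN) stood at 168 and 154 CPM against 173 and 174 CPM, a log2 fold change of 0.11 ± 0.14 (SE, adjusted p = 0.652 by edgeR). Of the symbols that are not integrin subunits, ITGB1BP1, a protein that binds the beta 1 tail and opposes talin, stood at 91.9 and 94.3 CPM against 71.0 and 80.1 CPM (log2 fold change -0.30 ± 0.15, SE, adjusted p = 0.243 by edgeR). ITGB3BP, which encodes a centromere protein and is the shortest member, stood at 6.62 and 6.69 CPM against 10.0 and 15.1 CPM (log2 fold change 0.91 ± 0.28, SE, adjusted p = 0.107 by edgeR). At the length of ITGB3BP, 0.28 times the median gene, the trend in replicate 2 was 0.45. Beyond the trend its log2 difference was 0.57 in replicate 1 and 0.70 in replicate 2.

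The other 9 members were not tested because their counts were low. ITGA9, ITGA10, ITGAL, ITGAM, ITGB2, FERMT3, ITGB1BP2 and ITGBL1 had between 0 and 10 counts in each library, and ITGAD had 0 counts in all 4. A count of 0 allows up to 0.283 CPM of the library total in either parental library, 0.205 in resistant replicate 1 and 0.233 in resistant replicate 2, counting error only.

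Taking all 32 tested members, 13 (40.6%) had both resistant libraries below both parental ones, against 29.7% of all genes tested, and 7 (21.9%) had both above, against 30.9%. Those 7 include ITGAX, which was tested only through its resistant counts. The median log2 fold change was -0.20 over the members and 0.02 over all genes tested. By library the members' median log2 difference was -0.03 in resistant replicate 1 and -0.27 in replicate 2, against 0.02 and 0.00 over all genes. Beyond the length trend it was -0.03 and -0.25, for the 31 members with a length. The members' median was thus near that of all genes in replicate 1 and below it in replicate 2. In 10 of 32 members the resistant libraries differed from the parental mean in opposite directions, as they did in 3714 of the 12792 genes tested.

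With length corrected for in every library, ITGB8, PARVA, ITGA5, ITGA11, ITGB1 and VCL were lower and ITGB6 was higher by edgeR, 7 of 31 members. That fit called 9.75% of all genes lower and 7.83% higher. Against the parental pair, resistant replicate 2 alone called 16 members lower and 5 higher, where 26.8% and 26% of all genes were called, and replicate 1 alone called 10 lower and 2 higher, where 19.1% and 15.9% were. In these last fits the lone library is assumed to vary like the parental pair.

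**Figure D4:**
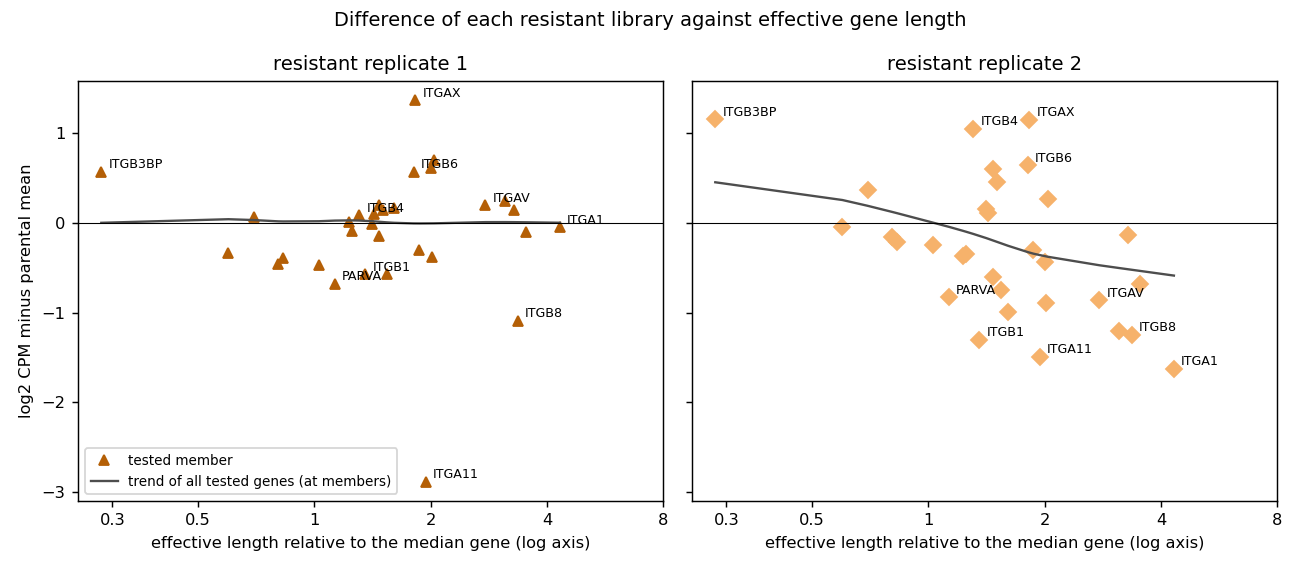
Log2 CPM of resistant replicate 1 (left) and replicate 2 (right) minus the parental mean, against effective length relative to the median gene on a log axis, for the 31 tested members with a length. The line is the lowess trend of all tested genes, read at the members' lengths: it is flat in replicate 1 and goes from 0.45 at ITGB3BP to -0.59 at ITGA1 in replicate 2.

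**Figure D5:**
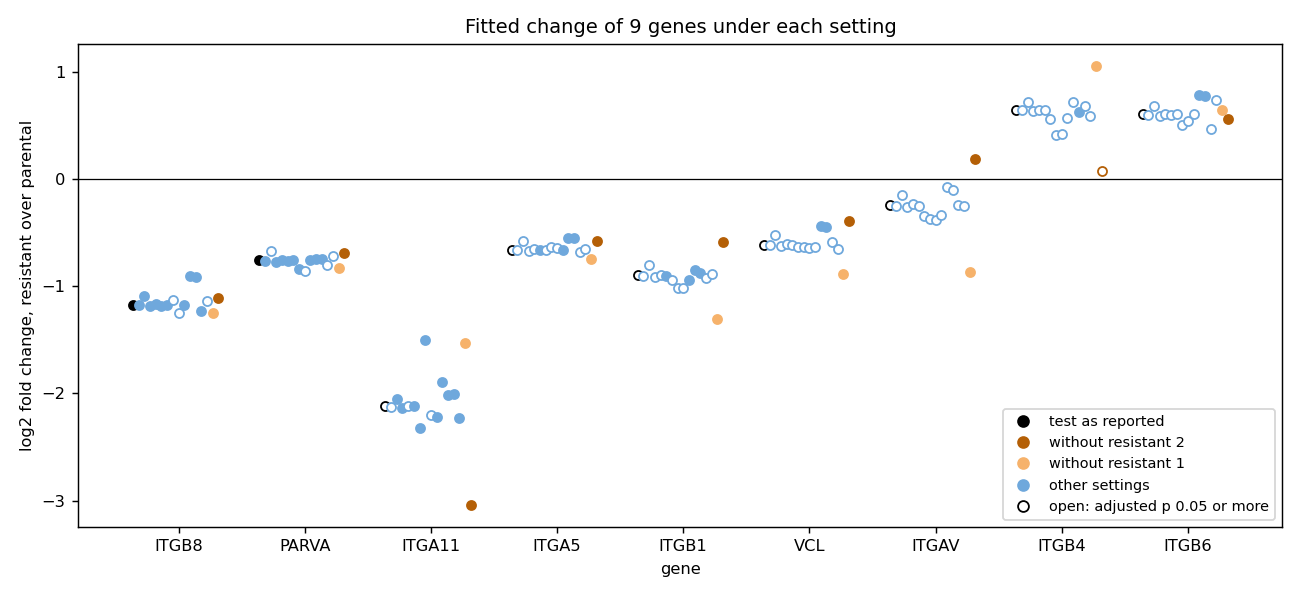
Fitted log2 fold change of 9 genes under the reported test and its alternatives, 1 point per setting, with open circles where the adjusted p was 0.05 or more. ITGB8 lies between -1.25 and -0.91 and PARVA between -0.86 and -0.67, while ITGAV changes sign between the fits without resistant replicate 1 (-0.86) and without resistant replicate 2 (0.19).

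The ligands and partners of these receptors were read from 4 further lists with 101 genes tested. Of 30 tested matrix ligands, 2 rose, 4 fell and 24 did not pass, beside 2.96% and 3.41% of all genes. Fibronectin (FN1), the ligand of alpha 5 beta 1 and of alpha v pairs, fell from 32281 and 30997 CPM in the parental libraries to 3640 and 1796 CPM in resistant replicates 1 and 2, a log2 fold change of -3.54 ± 0.36 (SE). The resistant libraries were far below the parental ones and also apart from each other, with replicate 2 the lower, at log2 differences of -3.12 and -4.14. Values of genes from these 4 lists are not corrected for length. The ligands were long, with a median of 2.12 times the median gene. Their median log2 difference was -0.11 in replicate 1 and -0.39 in replicate 2, and -0.12 and -0.04 beyond the length trend. The part of length in the gap between the FN1 libraries was not tested. Thrombospondin 1 (THBS1) fell from 557 and 524 CPM to 179.6 and 168 CPM (log2 fold change -1.64). Osteopontin (SPP1), an alpha v ligand, rose from 745 and 739 CPM to 1239 and 1175 CPM (0.70). Nephronectin (NPNT), a basement membrane protein of the kidney, rose from 1.85 and 2.13 CPM to 34.1 and 30.4 CPM (4.01). The adjusted p-values of these genes by edgeR were from 0.00198 to 0.0443.

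Of 26 tested adaptors and actin linkers 1 rose and 2 fell. For this list and those that follow, the share of all genes called was 2.96% higher and 3.41% lower. The LIM proteins CSRP1 and PDLIM1, which bind alpha-actinin and actin filaments, fell from 102 and 99.9 CPM to 22.2 and 20.3 CPM (log2 fold change -2.25) and from 113 and 107 CPM to 19.3 and 28.4 CPM (-2.21). TGFB1I1, the paxillin relative Hic-5, rose from 39.1 and 35.7 CPM to 70.3 and 80.1 CPM (1.01). Of 27 tested signalling enzymes and scaffolds 1 rose and 2 fell. The GTPase RAC1 rose from 295 and 316 CPM to 477 and 539.6 CPM (0.73). The Src-family kinase FYN fell from 19.4 and 15.8 CPM to 7.89 and 5.90 CPM (-1.35), and the phosphatase PTPN12 from 68.8 and 82.9 CPM to 45.8 and 38.9 CPM (-0.84). Of 18 tested genes of integrin activation, trafficking and tetraspanins 0 rose and 3 fell. They include PLAUR, the urokinase receptor, from 59.2 and 55.6 CPM to 16.6 and 23.2 CPM (-1.53), and CD47, the integrin-associated protein, from 112.6 and 109 CPM to 57.9 and 50.4 CPM (-1.03). In none of these genes did the parental and resistant values overlap, but they were named for passing the threshold. Of all genes tested, 30.9% had both resistant libraries above both parental ones and 29.7% had both below.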

How the data were processed

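The 2 parental and 2 resistant RNA libraries were grouped by their titles. Per the submitters' processing notes, STAR, RSEM and DESeq2 1.40.2 were used, with the builds GRCh38 and hg19 named without roles. The deposited tables give RSEM estimated counts (3.16% fractional, rounded here) and TPM per gene symbol; the annotation and the use of strand in counting are not stated in the labels, so overlapping genes cannot be told apart. H3K27ac peaks lie on coordinates other than those of the gene tables and were not used, nor were protein sequences.

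Genes passing filterByExpr were scaled by TMM and tested with edgeR 4.0.16 (R 4.3.3) by quasi-likelihood, line as the only term, Benjamini-Hochberg at 0.05 over all 12792 genes. The fit was tried on simulated counts with the same spread in every library, so the wider spread of the resistant pair was not part of that trial. The per-library log2 difference adds 0.25 CPM. Relative length used counts of 20 or more and a lowess span of 0.3. Values in each library are given for members past the threshold or at a mean TPM of 10 or more, and up to 2 rises and 2 falls are named from each further list; others were named after their values were seen. The members and lists were chosen with earlier results of these data known. Alternatives were DESeq2 size factors or library totals, other filters, DESeq2 1.42.0, limma 3.58.1 (voom, or trend on log2 TPM plus 1 or 0.1, for genes reaching 1 TPM in at least 2 libraries), a replicate term, length correction, leaving out each library in turn, and a cutoff of 0.01. Figures used matplotlib 3.10.9.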

Additional observations from a re-analysis of the deposited data

How the results depend on the processing

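Of the 2 member calls, ITGB8 passed in 12 of 16 alternatives and PARVA in 11, lower in all 16. Beside 379 genes higher and 436 lower, 0 members higher and 2 lower, and 4 further-list genes higher and 11 lower, the counts moved by over 1.5 times as follows. DESeq2 gave 576 and 715 genes, 5 members lower and 18 further-list genes lower. A threshold of 0.01 gave 24 and 73 genes, 0 members, and 1 and 4 further-list genes. Limma on log2(TPM + 1) gave 243 and 282 genes, and on log2(TPM + 0.1) 217 and 243 genes, 0 members and 7 further-list genes lower. Length correction gave 981 and 1221 genes, 1 and 6 members, and 14 and 25 further-list genes. The replicate block gave 860 and 1020 genes of 12792, 1 and 6 members and 19 further-list genes lower, and length correction with the replicate block gave 1262 and 1502 genes, 2 and 6 members, and 15 and 28 further-list genes. The labels state no pairing beyond the replicate number. Deviations of same-numbered libraries correlated at -0.05, but the parental pair differed little, so this value cannot decide whether libraries were paired. Leaving out each library gave 141 to 3374 genes higher and 264 to 3479 lower, 0 to 5 members higher and 1 to 16 lower, and 1 to 22 further-list genes higher and 7 to 59 lower. The cause of these shifts was not tested.

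The sign of the log2 fold change was not kept by 12 members. On leaving out 1 library at a time it ran from -0.861 to 0.19 for ITGAV, from -0.46 to 0.6325 for FERMT1, from -1.281 to 0.25 for ITGA2, from -1.057 to 0.16 for ITGA4, from -0.0008992 to 0.68 for ITGA7, from -0.16 to 0.634 for ITGAE, from -0.6032 to 0.19 for ITGB3, from -0.01526 to 0.1655 for ITGB5, from -0.6289 to 0.44 for ITGB7, from -0.3672 to 0.002829 for PTK2 and from -0.14 to 0.1351 for TLN2. TLN2 was also at -0.06 without parental replicate 2 and -0.005724 with no filter, ITGB7 at 0.04 without resistant replicate 1, and ITGA6 at -0.006034 with limma on log2(TPM + 0.1). Depth was lowest for ITGB7, at 8 to 17 counts in a library, and ITGAX, at 3 to 23.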

Other observations

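Among the laminin chains, chosen after their values were seen, LAMB3, an epithelial chain, fell from 137 and 145 CPM in the parental libraries to 60.6 and 33.6 CPM in resistant replicates 1 and 2 (log2 fold change -1.58 ± 0.28, SE, adjusted p = 0.033 by edgeR). LAMA3, another epithelial chain, stood at 134 CPM in both parental libraries against 218 and 151 CPM, higher in both resistant libraries (log2 fold change 0.46, adjusted p = 0.206 by edgeR). These values are not corrected for length, and the difference between these chains was not tested.

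LAMA4, a laminin chain of vessels and mesenchyme, fell from 118 and 121 CPM to 72.7 and 73.0 CPM (log2 fold change -0.72 ± 0.14, SE, adjusted p = 0.0383 by edgeR). DAB2, an endocytic adaptor for integrin beta 1, fell from 103 and 101 CPM to 62.6 and 52.3 CPM (log2 fold change -0.82 ± 0.16, SE, adjusted p = 0.0387 by edgeR). RSU1, a partner of the ILK complex, had 100.5 ± 1.21 CPM (SD, n = 2) in parental and 68.9 ± 0.616 CPM in resistant libraries, a log2 fold change of -0.55 with an adjusted p of 0.0739 by edgeR.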
